A study of Homo sapiens with 9 samples.

Results

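Translation initiation factor mRNAs were examined as targets of RNA-binding proteins (RBPs). The members were the 54 GENCODE protein_coding genes whose symbol starts with EIF, of 20046 protein_coding genes in all, with EIF3G and EIF4ENIF1 left out of the list, and 13 of the 54 encode subunits of eIF3. A peak was assigned to a member when it overlapped the gene on the gene's strand. This gave 16556 of 2478204 merged peaks over all libraries.

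Antibody-barcode eCLIP (ABC) joins a DNA barcode on each antibody to the RNA fragment that the bound protein protects after ultraviolet crosslinking, so that several RBPs are read from a single tube. In the 10plex ABC sets, antibodies to DDX3, EIF3G, FAM120A, IGF2BP2, LIN28B, PRPF8, PUM2, RBFOX2, SF3B4 and ZC3H11A shared a tube, in 3 replicates of K562, an erythroleukaemia line, and 2 replicates of a line labelled HEK293T, derived from human embryonic kidney (called HEK293 here; the methods name it HEK293XT). Singleplex ABC, with 1 antibody a tube, was made for RBFOX2 in HEK293T and for SLBP in K562, each with 2 replicates. Neither line carried a mutation or received a treatment by the labels, nothing says that replicates came from separate cultures, and p-values therefore measure the spread between these samples, which may be technical. The cell line field of both HEK293 10plex samples reads K562, whereas their titles and source names read HEK293T, and that of K562 replicate 3 reads K563. Peaks on the erythroid genes HBG1, HBG2 and GATA1 followed the titles: HBG2 held 235, 410 and 238 merged peaks in the K562 replicates and 1 in each HEK293 replicate, and HBG1 and GATA1 held none in HEK293.

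Initiation factors bring the initiator tRNA, the small ribosomal subunit and the mRNA together. eIF2 carries the initiator tRNA and is recharged by eIF2B, while the eIF2 alpha kinases (EIF2AK1 to EIF2AK4) phosphorylate eIF2 and thereby block that recharging under stress. eIF3 scaffolds the small subunit, eIF4F (EIF4E, EIF4G and EIF4A proteins) binds and unwinds the capped 5′ end, the 4E-binding proteins hold EIF4E back, and EIF1, EIF1A and EIF5 act in start codon choice. The RBPs profiled here touch these mRNAs at different stages, since PRPF8 and SF3B4 belong to the spliceosome and act on the pre-mRNA, RBFOX2 regulates splicing, and the others have been mapped mainly to mature mRNA.

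An enriched peak was one with P below 0.001 and a fold above 8 over the complement control (CC), made of the reads that the remaining 9 antibodies of the tube gave in the same place. It therefore marks RNA that one RBP held in excess of the others, and not all binding. The 10plex libraries held 1371 enriched peaks on EIF genes, 832 in K562 and 539 in HEK293. Libraries differed widely in depth, from 13538 to 2822081 reads in merged peaks in K562 and from 39440 to 4450961 in HEK293, with PUM2 the lowest in every replicate. Intervals and floors given below cover counting error only.

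The sequences that carry the sites are shown first, each the 30 bases around the centre or motif of a peak enriched in every replicate of a cell line, 5′ to 3′ on the strand of the gene in GRCh38. The first set lies in 5′ untranslated regions (5′ UTRs) and shows the leaders held by DDX3, an RNA helicase, and by EIF3G, itself an eIF3 subunit.
EIF2S2, DDX3 in K562, chr20:34112178-34112207, minus strand: tggtgggagaggtatcggcaggggcagcgc
EIF2AK3, DDX3 in HEK293, chr2:88627358-88627387, minus strand: cggggcggcagtagggtccctagcacgtcc
EIF3A, DDX3 in HEK293, chr10:119080775-119080804, minus strand: ggccggctgggcgcgggcgactgctggcga
EIF5, EIF3G in K562, chr14:103334451-103334480, plus strand: ctgctcggcggcggcacctggcccggccgc
EIF1B, EIF3G in K562, chr3:40309861-40309890, plus strand: gccactacagcctcctgacaaggtgatccg
All 5 came from first or second exons. Over 100-base windows, the 30 DDX3 peaks on EIF genes in K562 averaged 66.9% G and C and the 21 EIF3G peaks 63.2%, against 46.6% over the 6621 merged EIF peaks of that line. These windows include coding sites, since 9 of the 30 and 12 of the 21 peaks lay in a 5′ UTR by region. All DDX3 and all EIF3G enriched peaks in K562 had 66.5% and 62.2%. In HEK293 the 19 DDX3 peaks on EIF genes had 65.0%, against 66.0% of all, and the 3 EIF3G peaks 48.3%, against 62.4% of all.

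The second set lies at exon ends and shows what PRPF8, the central protein of the U5 snRNP, held. Capitals mark the first 6 bases of the intron.
EIF2B1, intron 5, chr12:123627024-123627053, minus strand: atttgtcaggGCAAGTacctttctgttcag
EIF2S2, intron 3, chr20:34103442-34103471, minus strand: aggtgtaaagGTAGTAttgctttcttgttg
EIF2AK4, intron 16, chr15:39990368-39990397, plus strand: agccttttctGTAAGTattttaaaaattag
EIF4B, intron 3, chr12:53018997-53019026, plus strand: aggattaaatGTAAGTgtaaaagttgtaat
EIF4G3, intron 29, chr1:20849395-20849424, minus strand: tgattttaagGTAAATgagattaaaaaaaa
They are from the 5 genes with the highest mean log2 fold among PRPF8 peaks enriched in all 3 K562 replicates. Of the 5 introns, that of EIF2B1 starts with GC in place of GT. GTAAG, searched on the gene's strand in 100-base windows, was present in 110 of 233 PRPF8 peaks on EIF genes in K562 (47.2%), against 32.9% of all PRPF8 enriched peaks and 13.5% of merged EIF peaks. GTGAG was present in 24.5%, 26.5% and 13.8% of the same 3 sets.

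The third set holds the motifs GGAG, known from LIN28 binding, and GCATG, the RBFOX motif, in capitals.
EIF2B3, LIN28B in K562 and HEK293, chr1:44850944-44850973, minus strand: atgaccagctcatGGAGatctgagttctga
EIF4A1, LIN28B in K562 and HEK293, chr17:7577855-7577884, plus strand: acgtgattatgagGGAGtttcgttctggct
EIF5, LIN28B in HEK293, chr14:103342714-103342743, plus strand: ttcgggtgcaagtGGAGcaggagccatata
EIF2B2, RBFOX2 in HEK293, chr14:75008053-75008082, plus strand: tgggtttggctttGCATGctgtttgagata
EIF3A, RBFOX2 in HEK293, chr10:119047886-119047915, minus strand: tcaaggatatcttGCATGccttttctctgc
GGAG was present in 62.3% of the 159 LIN28B peaks on EIF genes in K562, against 59.0% of all LIN28B peaks and 37.9% of merged EIF peaks. In HEK293 it was present in 45.1% of 82, against 57.9% and 40.5%. GCATG was present in 7 of the 12 RBFOX2 peaks on EIF genes in K562 and in 17 of 37 in HEK293, where 61.3% of all RBFOX2 peaks and 9.90% of merged EIF peaks held it.

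The fourth set holds sites in 3′ untranslated regions (3′ UTRs) and at intron ends, where no motif was searched.
EIF2S1, FAM120A in K562, chr14:67384024-67384053, plus strand: aactttaaccacagtgaaagttgaccctta
EIF2AK1, IGF2BP2 in K562, chr7:6024070-6024099, minus strand: aaaccacacccttgcaaagctttgtactcc
EIF4H, SF3B4 in K562, intron 4, chr7:74190194-74190223, plus strand: gcgcagcaaggtaatgacacgacctcaact
EIF4H, SF3B4 in HEK293, intron 2, chr7:74189612-74189641, plus strand: tcttcccacatctttaacccagaattactt
The FAM120A windows on EIF genes were poor in G and C (38.8% in K562), as were all FAM120A windows (38.6%).

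The number of members reached differed strongly between RBPs. In K562, PRPF8 had an enriched peak in all 3 replicates on 26 of the 51 members with a merged peak, LIN28B on 16, FAM120A on 10, SF3B4 on 5, IGF2BP2 on 4, EIF3G on 2 and DDX3 on 1. PUM2, RBFOX2 and ZC3H11A had none. Over all 12217 protein_coding genes with a merged peak in K562, the share with an enriched peak in every replicate was 25.4% for PRPF8, 12.3% for LIN28B, 13.5% for FAM120A, 11.2% for SF3B4, 5.14% for IGF2BP2, 1.25% for EIF3G, 4.34% for DDX3, 0.196% for PUM2, 5.21% for RBFOX2 and 0.843% for ZC3H11A. Members stood above these shares for PRPF8 (51%), LIN28B (31.4%), FAM120A (19.6%), IGF2BP2 (7.84%) and EIF3G (3.92%), the last 2 with 4 and 2 genes. SF3B4 (9.8%) was near the share of all genes. RBFOX2 reached none of the 51 members and DDX3 1 (1.96%), too few for a direction to be read. EIF genes held more merged peaks each than other genes, with a median of 98 against 34 in K562 and 103 against 58 in HEK293, and the part of this in the shares was not tested. The order depended on the background. Over the external background of the deposited lists in place of the CC, the members' share in K562 exceeded that of all genes for every RBP. This background was not a single library for all RBPs in K562, which limits comparisons between RBPs over it. PRPF8 had 41 members or 80.4% against 49.3%, FAM120A 29 or 56.9% against 31.4%, and SF3B4 26 or 51% against 21.5%. LIN28B and RBFOX2 each had 24 or 47.1%, against 14.6% and 21.7%. On the same background DDX3 and IGF2BP2 each had 23 members or 45.1%, against 18.6% and 13.5% of all genes. ZC3H11A had 17 or 33.3% against 8.46%, EIF3G 8 or 15.7% against 3.59%, and PUM2 6 or 11.8% against 1.78%.

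**Figure D1:**
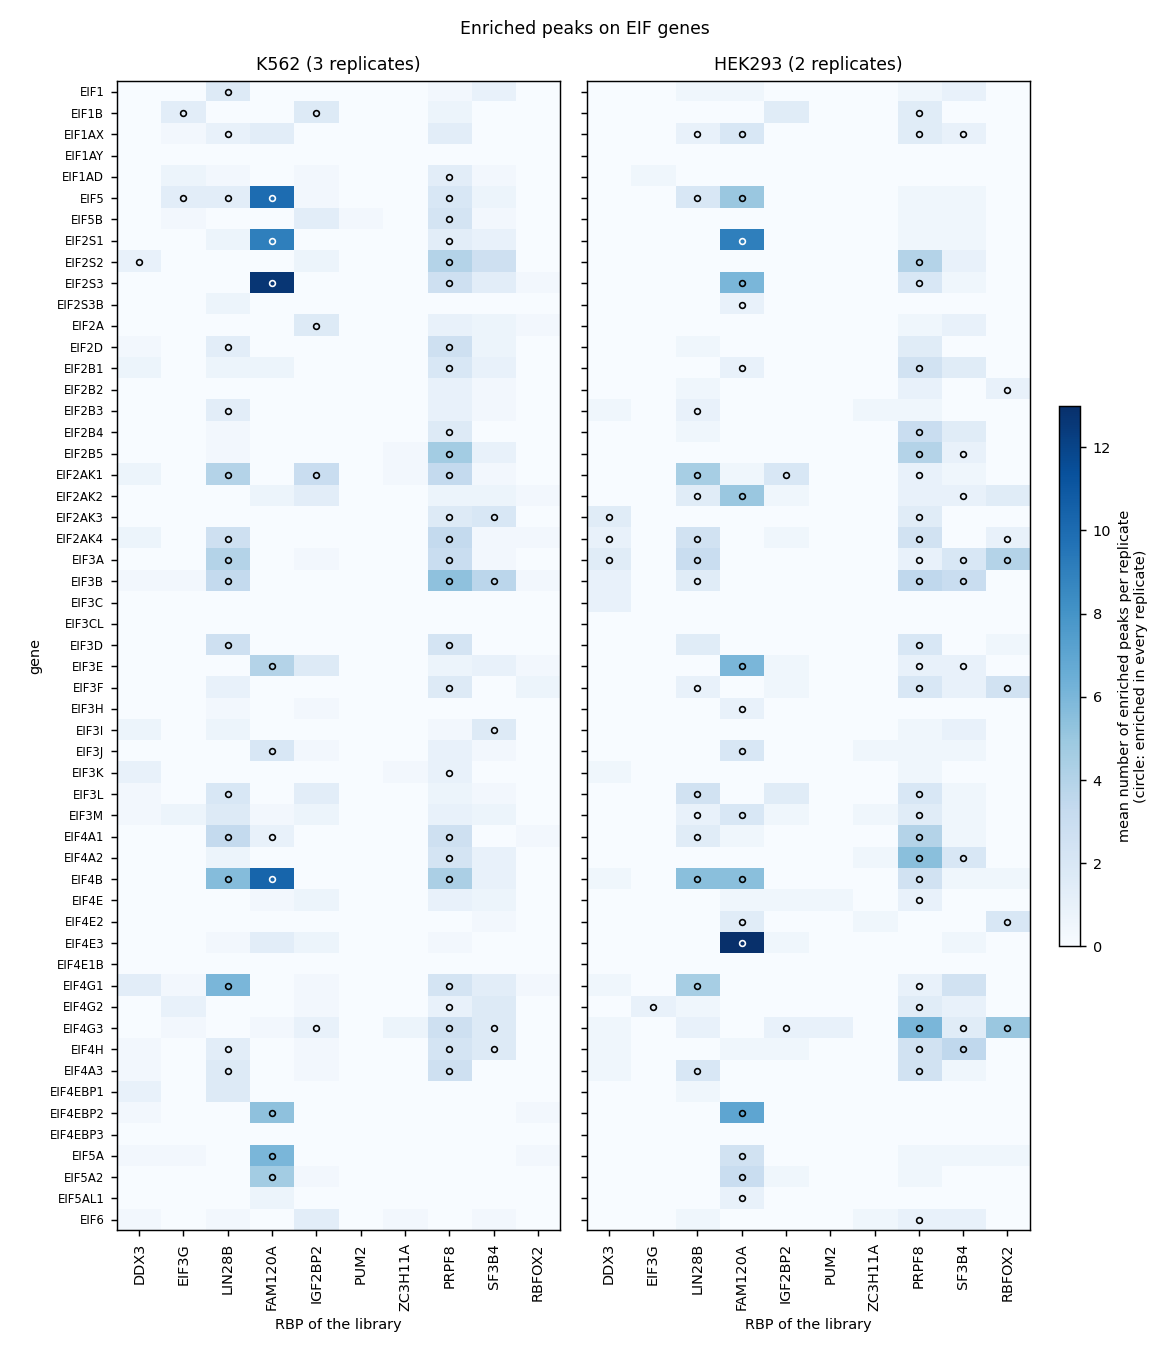
Mean number of enriched peaks per replicate on each of the 54 EIF genes (rows, ordered by role) for the 10 RBPs (columns), in K562 (left, 3 replicates) and HEK293 (right, 2 replicates). Circles mark genes enriched in every replicate, which are most numerous for PRPF8 (26 genes in K562, 27 in HEK293), and the darkest cells are FAM120A on EIF2S3 in K562 and on EIF4E3 in HEK293.

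In HEK293, the same count over both replicates was 27 of 52 members for PRPF8, against 36.2% of the 13968 genes tested, 18 for FAM120A (23.8% of all genes), 15 for LIN28B (14.7%), 9 for SF3B4 (17.1%), 6 for RBFOX2 (13.2%), 3 for DDX3 (11%), 2 for IGF2BP2 (5.62%), 1 for EIF3G (3.31%), and 0 for PUM2 (0.458%) and ZC3H11A (2.94%). Members again stood above all genes for PRPF8 (51.9%), FAM120A (34.6%) and LIN28B (28.8%). For SF3B4 and RBFOX2, the members' 17.3% and 11.5% were near the shares of all genes. Of the members enriched in every K562 replicate, 9 of 10 for FAM120A, 12 of 16 for LIN28B, 20 of 26 for PRPF8, 3 of 5 for SF3B4 and 2 of 4 for IGF2BP2 were also enriched in both HEK293 replicates. Over all genes, the share of the K562 list that was also on the HEK293 list was 88.3% for FAM120A, 63.1% for LIN28B, 72.3% for PRPF8, 59.1% for SF3B4 and 30.3% for IGF2BP2. The DDX3 lists of 1 and 3 members and the EIF3G lists of 2 and 1 are too short for an overlap to be read.

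**Figure D2:**
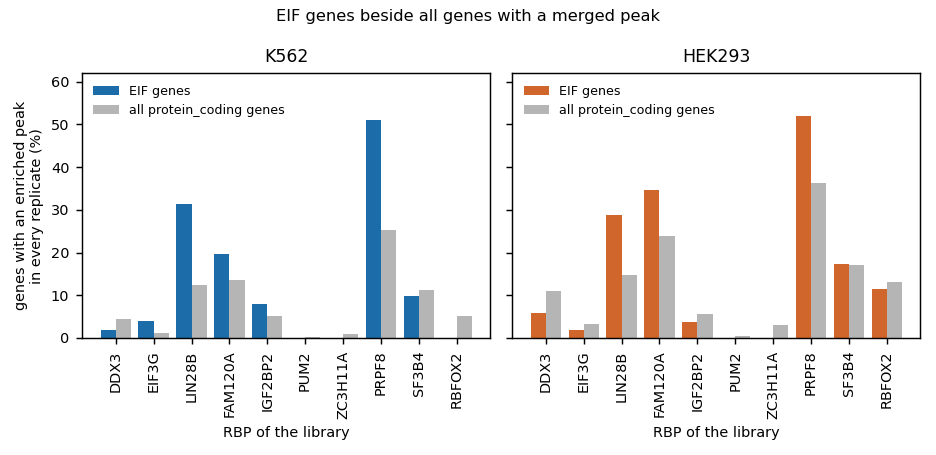
Percent of EIF genes (coloured bars) and of all protein_coding genes with a merged peak (grey bars) that held an enriched peak in every replicate, by RBP, in K562 and HEK293. The coloured bar exceeds the grey one in both lines for PRPF8 (51% and 51.9%), LIN28B (31.4% and 28.8%) and FAM120A (19.6% and 34.6%).

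In all, 38 members were enriched in every K562 replicate for at least 1 RBP, of which 20 for a single RBP, 11 for 2 and 7 for 3 or more. These were 74.5% and 13.7% of the 51 members for at least 1 and for 3 or more RBPs, against 47.3% and 8.09% of all genes. EIF5, which triggers GTP hydrolysis by eIF2 at the start codon, was the member with the most RBPs in K562, namely EIF3G, FAM120A, LIN28B and PRPF8. In HEK293 the number was 41, or 78.8% of 52 members against 65.7% of all genes, with 11 (21.2%) reached by 3 or more RBPs against 16.8%. In that line EIF3A, the largest scaffold subunit of eIF3, was reached by 5 RBPs (DDX3, LIN28B, PRPF8, RBFOX2 and SF3B4). LIN28B and PRPF8 shared 12 members in K562, which were 75% of the LIN28B list and 46.2% of the PRPF8 list. PRPF8 alone reached 51% of the 51 members, and no overlap over all genes is set beside these shares. EIF4E1B and EIF1AY had no merged peak in any library.

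The share of a library's enriched peaks that fell on EIF genes was compared between RBPs within the replicates. LIN28B, an RNA-binding protein of the let-7 pathway that also binds mRNAs, had the highest share in K562, with 1.10%, 0.942% and 0.883% in the 3 replicates. Its mean of 0.975% ± 0.113 (SD, n = 3) stood 0.522 percentage points above the other 9 RBPs, whose libraries ranged from 0% to 0.852%, so that the groups did not overlap. This difference passed an exact permutation test of the RBP labels within replicates (two-sided p = 0.001, the smallest it can give with 1000 choices, and adjusted p = 0.010 over the 10 RBPs). It was no longer past the threshold when any fold above 1 was accepted (0.197 percentage points, p = 0.374 by the exact test). The same held when folds were taken over the external background of the deposited lists (0.408 percentage points, exact p = 0.137). That background was not a single library for all RBPs. Among merged peaks, before any call of enrichment, LIN28B did not lead in K562. EIF genes took 1.33% of its merged peaks on average, against 2.19% for PUM2 and 1.55% for EIF3G. ZC3H11A (1.32%) and DDX3 (1.29%) were near LIN28B, and the remaining RBPs had 0.741% to 1.09%.

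The other shares did not pass the adjusted test. FAM120A had 0.778% ± 0.0993, EIF3G 0.706% ± 0.165, PRPF8 0.655% ± 0.170, IGF2BP2 0.611% ± 0.00741, SF3B4 0.530% ± 0.137, DDX3 0.409% ± 0.124 and ZC3H11A 0.197% ± 0.146 (SD, n = 3 each). At the low end, RBFOX2 had 0%, 0.0734% and 0.237% (adjusted p = 0.0933, exact permutation test), and PUM2 0%, 0% and 0.268% (adjusted p = 0.065, exact permutation test). PUM2 had only 198, 430 and 373 enriched peaks in all, and 0 of 198 allows a share of up to 1.52%, above the highest share of any library, whereas 0 of 2607 for RBFOX2 in replicate 1 allows up to 0.115%. For PUM2 the direction rested on the fold limit, since with any fold above 1 accepted its EIF share was 0.683 percentage points above that of the other RBPs (p = 0.004, exact permutation test). For LIN28B, 1.36% ± 0.171 of enriched peaks (SD, n = 3) lay on the 86 ribosomal protein genes and 0.196% ± 0.0662 on the 16 EEF elongation factor genes.

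**Figure D3:**
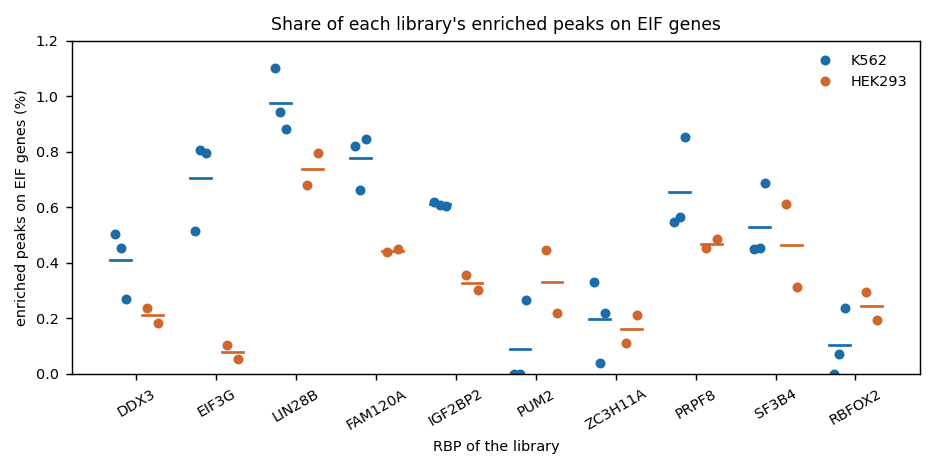
Percent of each 10plex library's enriched peaks that lie on EIF genes, by RBP; each point is a replicate and each line a mean, for K562 (3 replicates) and HEK293 (2 replicates). The K562 points of LIN28B, from 0.883% to 1.10%, lie above every other point, and the EIF3G points of the lines are far apart, at 0.516% to 0.806% and 0.0550% to 0.105%.

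LIN28B sites on EIF mRNAs lay mostly in coding sequence (CDS). The CDS held 76.8% ± 7.27 of its EIF peaks in K562 (SD, n = 3) and 78.0% ± 0.342 in HEK293 (n = 2), against 64.2% and 62.4% of all its enriched peaks. The latter include peaks outside the annotated regions. The difference from the other RBPs, many of which also had CDS peaks, did not pass (adjusted p = 0.205, exact permutation test). EIF4G1, the eIF4F scaffold, had 5, 6 and 7 enriched LIN28B peaks in the K562 replicates. EIF4B, which stimulates the EIF4A helicase, had 6, 7 and 4, and the heme-regulated kinase gene EIF2AK1 had 5, 5 and 2. EIF3A had 4 in each. These 4 genes were also enriched in both HEK293 replicates, with 5 and 4 peaks on EIF4G1, 6 and 5 on EIF4B, 4 and 5 on EIF2AK1, and 3 and 3 on EIF3A. The peak with the highest mean fold lay on EIF2B3, the gamma subunit of eIF2B, chr1:44850927-44850979. This peak lay in the last exon (exon 12), with its centre on the first base of the stop codon. It held 21, 23 and 7 LIN28B reads against 0, 2 and 5 in the CC, whereas LIN28B made up only 5.78%, 5.45% and 5.32% of the reads of the pools. In HEK293 the leading peak lay in exon 33 of EIF2AK4, the kinase that senses amino acid shortage, chr15:40025978-40026012, with 6 and 4 LIN28B reads against 1 and 6.

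FAM120A sites lay in 3′ UTRs. All of its EIF peaks in K562 overlapped one, in each of the 3 replicates, and 96.7% ± 0.809 in HEK293 (SD, n = 2), against 94.3% and 94.5% of all FAM120A peaks. The share differed from that of the other RBPs in K562 by 88.3 percentage points (adjusted p = 0.00370, exact permutation test, 8 RBPs tested). Before adjustment the p of this exact permutation test was 0.00139, the smallest that 720 choices allow. Because the study selected the RBPs for different regions, the test cannot set EIF mRNAs apart from other FAM120A targets. The peaks were most numerous on 4 members. EIF2S3, the gamma subunit of eIF2, held 11, 13 and 14 in the K562 replicates, EIF4B 9, 13 and 9, EIF5 10 in each, and EIF2S1, the alpha subunit of eIF2 that the stress kinases phosphorylate, 7, 14 and 6. In HEK293 these genes held 4 and 8, 5 and 6, 5 and 5, and 11 and 7. The peak with the highest mean fold in K562 lay on EIF2S1, chr14:67384005-67384072, 602 nt past the last base before the stop codon. This peak had 32, 24 and 14 reads against 2, 0 and 1 in the CC. FAM120A made up 30.2%, 36.8% and 25.1% of the K562 pools. The leading HEK293 peak, chr14:67384027-67384091, overlapped it, with 51 and 120 reads against 1 and 30. EIF4E3, which encodes a divergent cap-binding protein and was named after its values were seen, had 2, 2 and 0 enriched FAM120A peaks in K562 and 11 and 15 in HEK293, where the ranges do not overlap. The paralogs EIF5A and EIF5AL1, EIF2S3 and EIF2S3B, and EIF3C and EIF3CL are nearly identical, so that the assignment of reads between the genes of each pair is uncertain. EIF5A, which held 6 FAM120A peaks in each K562 replicate, and EIF2S3 are to be read with this limit.

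IGF2BP2, an mRNA-stabilising protein, had 57.5% ± 20.8 of its EIF peaks in K562 (SD, n = 3) and 57.1% in both HEK293 replicates in 3′ UTRs, against 51.4% and 48.2% of all its peaks (adjusted p = 0.0978 in K562, exact permutation test). The replicates differed, with 38.9%, 53.6% and 80.0%. EIF2AK1 led with 1, 3 and 5 enriched peaks, followed by EIF1B, a paralog of EIF1, with 1, 2 and 2, EIF2A with 2, 2 and 1, and EIF4G3 with 1 in each. The only IGF2BP2 peak on an EIF gene enriched in every replicate was in the last exon of EIF2AK1, chr7:6024035-6024133, with 44, 122 and 118 reads against 34, 119 and 37 in the CC, a mean log2 fold of 3.77 ± 0.20 (SD, n = 3). It recurred in HEK293 with 59 and 39 reads against 54 and 22 (mean log2 fold 3.44 ± 0.31, SD, n = 2).

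EIF3G had few enriched peaks on EIF mRNAs, mostly in leaders in K562. It had 59.3% ± 12.8 of its EIF peaks in 5′ UTRs in K562 (SD, n = 3), with 66.7%, 44.4% and 66.7% in the replicates. Those shares rest on 3, 9 and 9 peaks. Of all its enriched peaks in K562, 48.5% lay in 5′ UTRs. The share on EIF genes was 54.3 percentage points above the other RBPs, which were selected for different regions but for DDX3 (adjusted p = 0.00370, exact permutation test). In HEK293 only 2 and 1 EIF peaks were enriched for EIF3G, none in a 5′ UTR, although 49.4% of all its enriched peaks in that line lay there. EIF5 and EIF1B, both of the start codon selection group, were the members enriched in every K562 replicate, each with 1, 1 and 2 peaks, and without the peaks of replicate 3 in repeats 1 member was left. The EIF5 peak, chr14:103334418-103334513 in exon 2 with its centre at -340 from the start codon, held 9, 20 and 13 reads against 43, 47 and 62, a mean log2 fold of 3.74 ± 0.73 (SD, n = 3), with EIF3G at 1.86%, 1.77% and 2.24% of the pools. In HEK293 the member enriched in both replicates was EIF4G2, a relative of EIF4G1 that lacks the EIF4E site, with 1 peak in each.

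DDX3 peaks on EIF genes lay around start codons. In K562, 22 of 30 had their centre within 100 nt of a start codon, and in HEK293 10 of 19. By region, 29.7% ± 8.47 lay in the 5′ UTR in K562 (SD, n = 3; adjusted p = 0.109, exact permutation test) and 53.6% ± 5.05 in HEK293 (n = 2), against 41.8% and 41.2% of all DDX3 peaks. EIF2S2, the beta subunit of eIF2, had 1 enriched peak in each K562 replicate, chr20:34112166-34112217, with its centre at -82 from the start codon, and with 9, 12 and 16 reads against 9, 19 and 23 (mean log2 fold 3.73 ± 0.52, SD, n = 3). In HEK293 the leading peak lay at -98 from the start codon of EIF2AK3, the kinase of endoplasmic reticulum stress, chr2:88627347-88627397, with 5 and 5 reads against 4 and 4. EIF2AK4 and EIF3A were the other 2 members enriched in both HEK293 replicates.

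PRPF8 reached the most members and sat at the starts of introns. Of its 233 EIF peaks in K562, 206 had their centre within 100 nt downstream of a 5′ splice site and 194 within 30 nt, with a median of 14 nt. In HEK293, 118 of 146 were within 100 nt and 113 within 30 nt, with a median of 9 nt. Such positions were not counted over all genes for DDX3, PRPF8 or SF3B4. Most of these PRPF8 peaks also covered the end of the exon, and CDS ranks first in the region assignment. It gave CDS for 85.0% ± 9.07 and the 5′ splice site for 13.1% ± 7.38 in K562 (SD, n = 3). All PRPF8 enriched peaks in K562 were near this, with 79.6% and 11.1%. The 5′ splice site share on EIF genes still exceeded that of the other RBPs, selected for other regions (difference 11.1 percentage points, adjusted p = 0.0111, exact permutation test). With any fold above 1 accepted, or over the external background, the difference turned to -10.3 and -3.42 percentage points. EIF3B held 7, 5 and 4 peaks in the K562 replicates, EIF2B5, the catalytic subunit of eIF2B, 3, 6 and 5, EIF4B 4, 6 and 3, and EIF2S2 3, 4 and 5. All 4 were enriched in both HEK293 replicates. The peak with the highest mean fold, at intron 5 of EIF2B1, chr12:123627009-123627070, held 25, 38 and 42 reads against 3, 5 and 8, with PRPF8 at 15.8%, 11.7% and 19.2% of the pools. In HEK293 it was at intron 10 of EIF2AK3, chr2:88583393-88583449, with 22 and 14 reads against 0 and 4.

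SF3B4, of the U2 snRNP, lay at the other end of the intron. In K562, 86 of its 97 EIF peaks had their centre within 100 nt upstream of a 3′ splice site, with a median of 33.5 nt over peaks in that range, and in HEK293 57 of 70, with a median of 36 nt. The 3′ splice site region held 54.9% ± 11.2 of the peaks in K562 (SD, n = 3) and 53.6% ± 17.6 in HEK293 (n = 2), against 47.5% and 51.0% of all SF3B4 peaks. In K562 the share was 54.8 percentage points above the other RBPs (adjusted p = 0.00370, exact permutation test). As for FAM120A, this compares RBPs selected for different regions and not EIF genes with other genes. EIF3B held 1, 6 and 4 peaks, EIF2AK3 1, 3 and 2, and EIF4G3 and EIF4H 1, 3 and 1 each. The peak in intron 4 of EIF4H, an EIF4B-related helicase cofactor, chr7:74190185-74190232, held 11, 15 and 5 reads against 8, 16 and 3. The leading HEK293 peak, in intron 2 of the same gene, chr7:74189605-74189649, held 6 and 7 reads against 1 and 5. Of the 5 members enriched for SF3B4 in every K562 replicate, 4 were also enriched for PRPF8. These were 80% of the SF3B4 list and 15.4% of the PRPF8 list. With 5 genes, and 51% of the 51 members reached by PRPF8 alone, this overlap is not read further.

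**Figure D4:**
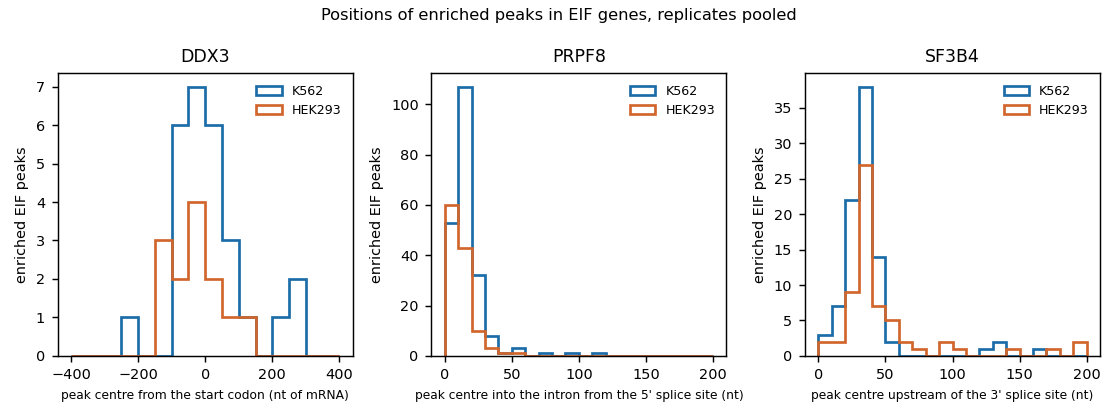
Centres of enriched EIF peaks by distance from the start codon for DDX3 (left; negative is upstream), into the intron from the 5′ splice site for PRPF8 (middle) and upstream of the 3′ splice site for SF3B4 (right), with replicates pooled for K562 and HEK293. PRPF8 peaks pile up within 30 nt (194 of 233 in K562) and SF3B4 peaks around a median of 33.5 nt in K562 and 36 nt in HEK293.

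RBFOX2 had 0, 4 and 8 enriched peaks on EIF genes in K562 and 23 and 14 in HEK293. Proximal and distal introns held 92.9% ± 10.1 of these in HEK293 (SD, n = 2), against 76.7% of all RBFOX2 peaks. The latter include peaks outside the annotated regions, so the denominators are unlike. EIF2AK4, EIF2B2, EIF3A, EIF3F, EIF4E2 and EIF4G3 were enriched in both HEK293 replicates. The leading peak was in intron 7 of EIF2B2, the beta subunit of eIF2B, chr14:75008016-75008103, with 19 and 20 reads against 1 and 6, where RBFOX2 made up 26.0% and 25.9% of the pools. Singleplex ABC for the same protein and line was set against the external background. Over it, 25 of 52 members (48.1%) were enriched in both replicates, against 33.6% of all genes. On that background, EIF genes took 0.690% and 0.670% of singleplex peaks and 0.665% and 0.726% of 10plex RBFOX2 peaks, which overlap (singleplex minus 10plex -0.0151 percentage points, p = 1 by an exact permutation test that cannot go below 0.3333). EIF4G3 held 40 and 30 singleplex peaks, EIF4G1 20 and 13, EIF4A1 18 and 17, and EIF3A 17 and 13.

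PUM2 and ZC3H11A gave little on these mRNAs. PUM2 had 0, 0 and 1 enriched EIF peaks in K562 and 2 and 1 in HEK293, of which 2 of the 3 HEK293 peaks held TGTANATA, where N is any base, against 13.1% of all its peaks, while the 1 K562 peak did not, against 21.5% of all. ZC3H11A had 3, 1 and 2 in K562 and 2 and 4 in HEK293. The PUM2 libraries were thin over the CC, with at most 456 enriched peaks of any gene. Those of ZC3H11A held 907 to 2480 in K562 and 1816 to 1868 in HEK293. SLBP, the histone mRNA stem-loop binding protein, was run in singleplex K562. Over the external background, 6 of 51 members (11.8%) were enriched in both replicates, against 2.37% of all genes. These were EIF4A1 (8 and 3 peaks), EIF4A2 (5 and 4), EIF4G1 (2 and 1), EIF4G2 (3 and 2), EIF5 (2 and 3) and EIF5B (1 and 1). The SLBP libraries had 1678 and 1741 enriched peaks of 4445 and 1743 merged peaks, and no CC was used. In replicate 2 the limits thus passed nearly every merged peak, and all 17 on EIF genes. Peaks on small RNAs were kept here, whereas the paper left snoRNAs out of its ranking of SLBP genes. The 6 members are to be read with these limits.

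**Figure D5:**
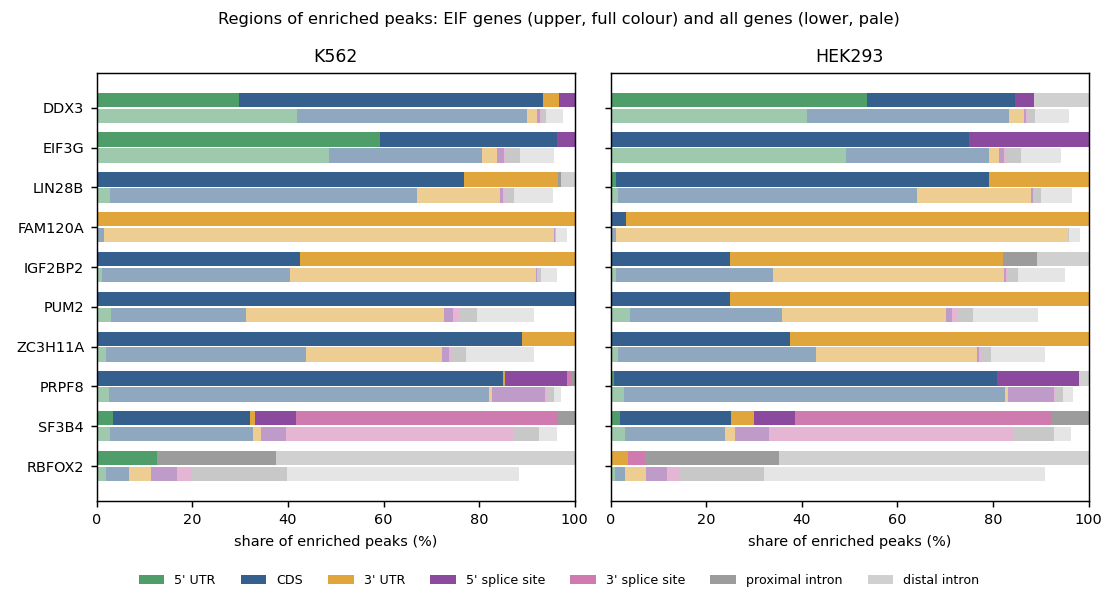
Regions of enriched peaks by RBP, as a share of peaks on EIF genes (upper bar, mean over replicates) and of peaks on all genes (lower, pale bar; the rest to 100% lies outside these regions), in K562 and HEK293. EIF peaks of FAM120A lie in 3′ UTRs (100% and 96.7%) and those of LIN28B mostly in CDS (76.8% and 78.0%), and the EIF3G bar in HEK293 rests on 3 peaks.

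The EIF3 subunits were taken apart from the rest. Among the 12 with a merged peak in K562, PRPF8 was enriched in every replicate on 5 (EIF3A, EIF3B, EIF3D, EIF3F and EIF3K), LIN28B on 4 (EIF3A, EIF3B, EIF3D and EIF3L), FAM120A on 2 (EIF3E and EIF3J) and SF3B4 on 2 (EIF3B and EIF3I). These were 41.7%, 33.3%, 16.7% and 16.7% of the 12, against 25.4%, 12.3%, 13.5% and 11.2% of all genes. In HEK293 the numbers were 7, 5, 4 and 3 of 13, with 2 for RBFOX2 (EIF3A and EIF3F) and 1 for DDX3 (EIF3A). Their shares were 53.8%, 38.5%, 30.8%, 23.1%, 15.4% and 7.69%, against 36.2%, 14.7%, 23.8%, 17.1%, 13.2% and 11% of all genes. With so few genes, the smaller of these differences are not read. EIF3 subunits made up 28.7% ± 4.51 of LIN28B's EIF peaks in K562, 22.1% ± 1.74 of those of PRPF8, 23.5% ± 6.95 of SF3B4 and 9.43% ± 5.34 of FAM120A (SD, n = 3 each). None of the 8 RBPs tested had an unadjusted p below 0.05 in the exact permutation test (lowest adjusted p = 0.669), so the shares of EIF3 among EIF peaks were not told apart at this depth. EIF3B had the most enriched peaks over all RBPs in K562 (40, with 18 in HEK293), followed by EIF3A (23 and 23) and EIF3E (23 and 17). EIF3M had 16 and 12, EIF3D 15 and 8, EIF3L 14 and 13, EIF3J 11 and 7, EIF3F 10 and 14, EIF3I 10 and 3, EIF3K 7 and 2, EIF3H 2 and 2, and EIF3C 0 and 2. EIF3CL had no merged peak in the 10plex sets.

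The cap-complex genes with the most merged peaks did not hold enriched peaks in proportion to their merged peaks. EIF4G2, EIF4G1, EIF4A1 and EIF4A2 had 411, 403, 356 and 344 merged peaks over the K562 libraries and 12, 36, 22 and 12 enriched ones. EIF5, with 230 merged peaks, had 47 enriched ones, and EIF4B, with 224, had 64. EIF4E, the cap-binding protein, had 43 merged and 8 enriched peaks, and EIF1 125 and 9. In HEK293 the enriched peaks numbered 8 on EIF4G2, 17 on EIF4G1, 13 on EIF4A1, 16 on EIF4A2, 16 on EIF5, 30 on EIF4B, 5 on EIF4E and 5 on EIF1.

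Between the lines, EIF shares were lower in HEK293 without overlap of the replicates for 6 RBPs. For EIF3G the share was 0.0801% ± 0.0355 in HEK293 (SD, n = 2) against 0.706% in K562, for FAM120A 0.445% ± 0.00621 against 0.778%, for IGF2BP2 0.328% ± 0.0377 against 0.611%, for LIN28B 0.739% ± 0.0804 against 0.975%, for DDX3 0.211% ± 0.0384 against 0.409% and for PRPF8 0.470% ± 0.0230 against 0.655%. The direction turned for LIN28B (0.182 percentage points higher in HEK293) and PRPF8 (0.0227 higher) with reads in place of peaks, and for IGF2BP2 (0.0386 higher) with any fold above 1 accepted. PUM2, RBFOX2, SF3B4 and ZC3H11A overlapped. Among merged peaks, before any call of enrichment, the mean EIF share was lower in HEK293 for every RBP. It was 0.832% against 1.29% for DDX3, 1.11% against 1.33% for LIN28B and 0.462% against 0.741% for RBFOX2. The HEK293 replicates also held more merged peaks, 522943 and 668177 against 204766 to 309709 in K562. The part of this in the lower shares of enriched peaks was not tested. No p was below 0.1, the smallest that 3 against 2 replicates allow in an exact permutation test, and adjusted p-values ranged from 0.25 to 0.80. Within HEK293, LIN28B again had the highest share, 0.435 percentage points above the other RBPs (p = 0.01, exact permutation test, the smallest it can give with 2 replicates).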

How the data were processed

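The deposited peaks were from 50 10plex and 4 singleplex libraries, and the RBP of a 10plex library was taken from the name of its file. By the methods, the authors removed UMIs with umitools, aligned unique reads to GRCh38 with STAR and called peaks in each library with CLIPper, and the submitters' processing notes name cutadapt 2.8 and STAR 2.7.6. The peak files as deposited hold the CLIPper p-value and a whole-number display score. The merged lists of the authors hold −log10 P (limited to 400) and the log2 fold of the library's read share over an external background. For K562 replicate 3 they also hold it over the CC. The methods name size-matched input and RNA-seq as backgrounds from outside the tube. In K562 the background's size relative to the tube's reads differed between RBPs, so it was not a single RNA-seq library. In HEK293 it was nearly the same for all RBPs but RBFOX2. For the other 10plex replicates the authors deposited a chi-squared statistic against the CC, from which CC reads were recovered here by fitting the pool's size so that they came out whole. Among enriched peaks, 72.1% to 99.5% in K562 and 56.4% to 98.0% in HEK293 came within 0.03 reads of a whole number, which the fit itself favours. For K562 replicate 3, chi-squared values were computed from the known reads and inverted with the same pool share and size. In this, 100% of enriched peaks were recovered with at most 0.0448% false, and 92.7% to 98.6% of peaks kept their direction. This tried the inversion and the choice of direction only. The fit of the pool and the recovery of a library's own reads were not tested. A CC of 0 was counted as 1 read.

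Genes and regions came from GENCODE v44 on GRCh38 (the authors used an earlier release), with CDS first, then 5′ UTR, 3′ UTR, 5′ and 3′ splice sites (within 100 nt), proximal (within 500 nt) and distal introns. Region shares of all peaks count peaks outside these regions in the denominator, whereas enriched EIF peaks all lay within them. Each RBP's share was compared with that of the others by exact two-sided permutation of RBP labels within replicates, with Benjamini-Hochberg adjustment over the RBPs; on simulated data 6.4% of null tests fell below 0.05. The region stated for an RBP was the one for which the study selected it. Tests of region shares therefore compare RBPs selected for different regions, and not EIF genes with other genes. Named genes were the top 4 members per RBP among those enriched in every K562 replicate, the peak with the highest mean fold per RBP and line, and EIF1, EIF4A1, EIF4A2, EIF4E, EIF4G1, EIF4G2, EIF5 and the EIF3 subunits. Members and lists were chosen with earlier results of these data known. Python 3.11.15, pandas 2.3.3 and scipy 1.17.1 were used.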

Additional observations from a re-analysis of the deposited data

Results flagged for a closer look

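In 3 cases, with the limits of the report, every K562 replicate lay on one side of the other RBPs and both HEK293 replicates on the other. For the EIF share of EIF3G, the difference from the other 9 RBPs was 0.0304, 0.384 and 0.255 percentage points in K562 and -0.298 and -0.296 in HEK293, a change of -0.521 (p = 0.1, exact permutation test). Without the peaks of replicate 3 in repeats, K562 replicate 3 fell to -0.210 and the mean over K562 to 0.0681, and under stricter limits the K562 values were -0.166, 0.392 and -0.182 (mean 0.0148), so that the replicates no longer lay on one side. For the EIF share of IGF2BP2 it was 0.145, 0.165 and 0.0424 against -0.0208 and -0.0222, a change of -0.139 (p = 0.2, exact permutation test), and under stricter limits the K562 values were 0.0716, -0.245 and -0.278. For the 5′ UTR share of EIF3G's EIF peaks it was 63.8, 39.4 and 59.6 against -6.22 and -6.51, a change of -60.6 (p = 0.1, exact permutation test), and under stricter limits K562 replicate 1 was at -4.76. None passed 0.05, since 3 against 2 replicates allow no p below 0.1.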

How the results depend on the processing

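Values are differences in percentage points from the other RBPs, with the p of the exact permutation test before adjustment. For the EIF share, stricter limits (P below 1e-05, fold above 16) gave 0.435 for FAM120A (exact p = 0.047), -0.150 for IGF2BP2 and -0.419 for RBFOX2 (p = 0.059). Any fold above 1 gave 0.197 for LIN28B, -0.0728 for FAM120A, -0.156 for PRPF8 and 0.683 for PUM2. The external background gave 0.408 for LIN28B, -0.420 for FAM120A, -0.615 for PRPF8 (exact p = 0.016), 0.809 for PUM2 (p = 0.002), -0.431 for RBFOX2 and -0.353 for SF3B4. HEK293 in place of K562 gave -0.297 for EIF3G, -0.0215 for IGF2BP2, -0.0164 for PUM2 and -0.113 for RBFOX2. Reads in place of peaks gave -0.731 for PUM2, -0.752 for RBFOX2 and -0.282 for SF3B4, and mRNA peaks as the denominator -0.0107 for SF3B4. Leaving out replicates in turn gave -0.170 to 0.00441 for DDX3, -0.528 to -0.422 for PUM2, -0.487 to -0.398 for RBFOX2, -0.0262 to 0.0629 for SF3B4 and -0.426 to -0.280 for ZC3H11A, while LIN28B stayed past 0.05 at 0.443 to 0.607. Replicates of one number shared a tube, and without the replicate block LIN28B had 0.522 (exact p = 0.00197); the block changed no call of the 10 EIF shares and 8 region shares. For the stated region, DDX3 passed 0.05 at any fold (21.9), over the external background (10.2), in HEK293 (53.2) and by peak centre (33.4), IGF2BP2 under stricter limits (59.6) and over the external background (24.0), and LIN28B at any fold (46.4) and by peak centre (41.8). EIF3G had -6.36 in HEK293, PRPF8 -10.3 at any fold, -3.42 over the external background and 12.96 in HEK293 (exact p = 0.11), and ZC3H11A 2.31 over the external background and 33.8 in HEK293. Leaving out replicates gave 27.6 to 52.3 for IGF2BP2 and 8.0007 to 15.1 for PRPF8. The EIF3 share had 3 RBPs below 0.05 at any fold, 3 over the external background, 2 in HEK293 and 0 to 1 without a replicate.

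Members enriched in every K562 replicate numbered 0 for DDX3, EIF3G, IGF2BP2 and SF3B4, 5 for FAM120A and 3 for PRPF8 under stricter limits. At any fold they were 9 for DDX3, 13 for IGF2BP2 and SF3B4, 1 for PUM2 and 3 for RBFOX2 and ZC3H11A. Over the external background they were 23 for DDX3 and IGF2BP2, 8 for EIF3G, 29 for FAM120A, 41 for PRPF8, 6 for PUM2, 24 for RBFOX2, 26 for SF3B4 and 17 for ZC3H11A. Without repeat peaks of replicate 3, an alternative added after seeing the data, EIF3G had 1. With 1 replicate left out they were 2 to 4 for DDX3, 5 to 8 for IGF2BP2, 0 to 1 for RBFOX2 and ZC3H11A and 7 to 13 for SF3B4. For HEK293 minus K562, any fold gave 0.0386 for IGF2BP2, -0.966 for PUM2 and -0.103 for RBFOX2, the external background -0.859 for PUM2 and -0.390 for RBFOX2, reads 0.182 for LIN28B and 0.0227 for PRPF8, and stricter limits 0.0486 for ZC3H11A, and leaving out replicates gave -0.215 to 0.0809 for SF3B4 and -0.113 to 0.0317 for ZC3H11A. Singleplex minus 10plex RBFOX2 ranged from -0.0453 to 0.0150. The cause was not tested for any of these. Thin libraries, above all PUM2 and EIF3G, limit what could be seen.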
